A study of Homo sapiens with 3 samples.

Results

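The mitochondrial ribosomal protein genes, which carry the symbols MRPL or MRPS and a number, were followed in RNA sequencing libraries of PC-3 cells, a human line established from prostate cancer. Members were chosen by symbol alone, leaving out pseudogenes, read-through and antisense genes, and 77 of the 18331 genes listed in the deposited tables qualified, 49 MRPL and 28 MRPS. Cells were collected 7 days after they received lentivirus expressing short hairpin RNA (shRNA), and 2 libraries were labelled KMT2D shRNA (1 and 2), against 1 labelled control shRNA. All 3 came from the same line and none was left without virus. KMT2D encodes a histone H3 lysine 4 methyltransferase that acts at enhancers. The labels do not say whether the numbers stand for different hairpins or for separate cultures. A p-value here thus measures only the spread between these libraries, which may be technical. Each gene's spread is taken mostly from that of all tested genes, because a gene alone leaves 1 residual degree of freedom. The test also takes the single control to vary as much as the labelled libraries do.

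The mitochondrial ribosome sits in the matrix and translates the mRNAs that the mitochondrial genome encodes, all of them for subunits of oxidative phosphorylation. Its rRNAs are mitochondrial transcripts, but its proteins are all encoded in the nucleus, made on cytosolic ribosomes and imported. Some descend from the proteins of the bacterial ribosome and others were added in the course of mitochondrial evolution. In a proliferating line such as PC-3 these genes are housekeeping genes, and they are expressed together with the respiratory chain genes.

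Library totals were 5157528 and 5123836 estimated counts in KMT2D shRNA libraries 1 and 2, and 5559499 in the control. KMT2D itself stood at 107.4 and 137.8 CPM (counts scaled by library size and TMM factor) in the KMT2D shRNA libraries, against 100.1 CPM in the control. It did not pass (log2 fold change 0.29, SE 0.18, edgeR adjusted p = 0.227), and its mRNA was not lower in the libraries labelled as its knockdown. That direction turned to -0.60 (edgeR adjusted p = 0.00922) once the trend of fold change with transcript length was removed and to -0.45 (edgeR adjusted p = 0.0994) with a GC trend removed as well. ISG15, an interferon-induced gene, stood at 103.7 and 94.2 CPM in the KMT2D shRNA libraries, against 3076 CPM in the control. The markers fixed for PC-3 were found: KRT8, KRT18, EPCAM, VIM and CDH1 had 70 to 7723 counts per library. Of these, KRT18 (-0.88, edgeR adjusted p = 3.19e-05) and KRT8 (-0.67, edgeR adjusted p = 0.00158) fell in the KMT2D shRNA libraries. With the length trend removed KRT18 still passed (-0.55, edgeR adjusted p = 0.0117) and KRT8 did not (-0.41, edgeR adjusted p = 0.0795). With the GC trend removed as well neither passed (edgeR adjusted p of 0.0715 for KRT18 and 0.205 for KRT8). The series' design text also speaks of retina, whereas every sample label gives PC-3, and the labels were used. The leukocyte gene PTPRC had 7 and 11 counts in the KMT2D shRNA libraries, against 7 in the control. The macrophage-associated gene CD68, which other cells also express, stood at 45.9 and 55.8 CPM in the KMT2D shRNA libraries, against 149.5 CPM in the control, and LYZ, a myeloid gene, at 22.6 and 19.7 CPM, against 32.9 CPM in the control (-0.64, edgeR adjusted p = 0.0182). With the length trend removed LYZ did not pass (-0.32, edgeR adjusted p = 0.317), while CD68 was lower (-1.30, edgeR adjusted p = 8.94e-09). The part of these markers in the results was not tested. The labelled libraries differed from each other by a chi-square of 5.31 per gene, and from the control by 40.9 (library 1) and 40.2 (library 2).

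All 77 members were listed in all 3 libraries and all passed the filter on low counts, with 40 or more counts in each KMT2D shRNA library, against 51 or more in the control. Members together took 0.383% of counts in KMT2D shRNA library 1 (exact binomial 95% interval 0.378% to 0.388%) and 0.377% in library 2 (0.371% to 0.382%), against 0.478% in the control (0.472% to 0.483%). These intervals cover counting error only. In the edgeR quasi-likelihood test over 14058 genes, 33 members fell (42.9%), where 14.5% of all tested genes fell. A single member, MRPL3, rose, where 16.6% of all tested genes rose. The other 43 did not pass, 33 with a fold change below 0 and 10 above, between -0.68 and 0.37 on the log2 scale. The median log2 fold change was -0.44 over members and -0.01 over all tested genes. In the RefSeq annotation of GRCh38.p14, used here for names, neighbours and promoters, 18 members overlap another tested gene and 41 have a pseudogene of their name. Their counts are thus less certain where reads could be shared. In bulk RNA, fewer cells and less RNA per cell cannot be told apart.

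The lower level was seen in both KMT2D shRNA libraries. Both were compared with the same single control library, so these comparisons are not independent. The median member stood 0.44 below the control in library 1 and 0.42 below it in library 2 on the log2 CPM scale, and 62 members lay below the control in both (80.5%), against 42.7% of all tested genes. Only 9 members lay above the control in both, against 41.5% of all tested genes, and 6 were split. For a member, the labelled libraries differed from each other by a median of 0.11 on the log2 scale, and library 1 was the lower for 39 members and the higher for 38. Members are short, and short genes as a class were lower in the KMT2D shRNA libraries, so these counts are also given against genes of similar length.

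**Figure D1:**
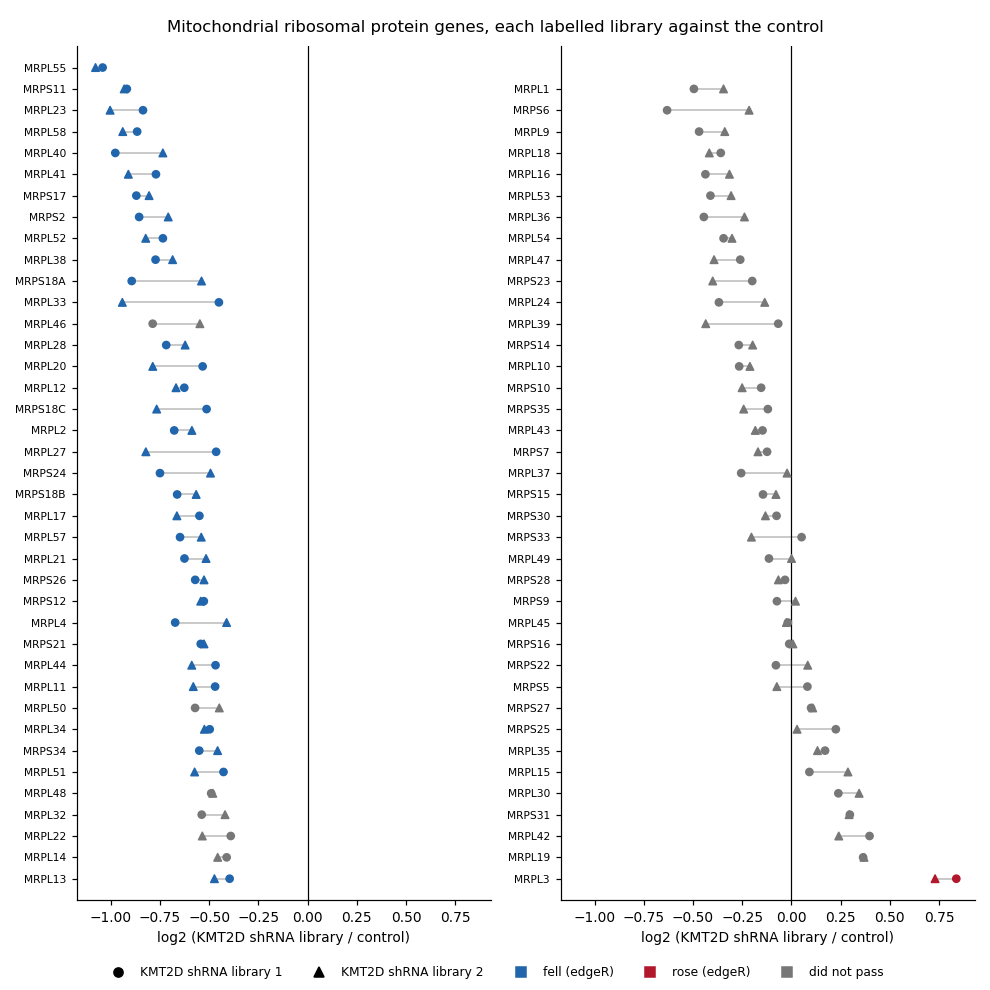
Log2 ratio of CPM in KMT2D shRNA library 1 (circles) and library 2 (triangles) to the control for all 77 members, ordered by fold change down the 2 panels and coloured by the edgeR call. Both points lie left of 0 for 62 members, and MRPL3 is the red member at the lower right.

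Among members past the threshold, MRPL55, a large subunit protein with a bacterial counterpart, fell most. It had 38.2 and 37.3 CPM in the KMT2D shRNA libraries, against 79.0 CPM in the control (log2 fold change -1.07, SE 0.18, edgeR adjusted p = 5.7e-06). The labelled libraries lay close together and far from the control. MRPS11, a small subunit protein of the platform with a bacterial counterpart, had 28.9 and 28.6 CPM, against 54.9 CPM in the control (-0.93, SE 0.19, edgeR adjusted p = 0.000175). MRPL23, a large subunit protein near the exit of the peptide tunnel, had 41.7 and 37.1 CPM, against 74.7 CPM in the control (-0.92, SE 0.18, edgeR adjusted p = 7.32e-05). MRPL23 is annotated as overlapping the H19 locus, and without strand such reads cannot be told apart.

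MRPL3, the large subunit protein whose bacterial counterpart reaches towards the peptidyl transferase centre, was the exception. It had 96.7 and 89.7 CPM in the KMT2D shRNA libraries, against 53.9 CPM in the control (log2 fold change 0.79, SE 0.18, edgeR adjusted p = 0.000748). In counts these were 506 and 455, against 297 in the control, and in length-scaled FPKM 55.4 and 50.1, against 30.1 in the control. Both labelled libraries stood well above the control on each scale. MRPL3 has 1 pseudogene named after it in RefSeq, and how reads were shared between near-identical copies is not given in the sources used here. In the DESeq2 Wald test its adjusted p was 0.0526, so the call is lost there. MRPL17, named here after its values were seen, fell to 80.1 and 73.9 CPM, against 117.3 CPM in the control (-0.61, SE 0.17, edgeR adjusted p = 0.00511).

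The promoters of MRPL3, which rose, of MRPL55, which fell most, and of MRPL17, which also fell with the length and GC trends removed, are given below with that of MRPL46, which shares a divergent start region with MRPS11. Each runs from 250 bases before to 50 bases after the gene's start, 5′ to 3′ on the gene's strand, from RefSeq on GRCh38.p14. Capitals mark matches, on either strand, to motifs known from promoters of nuclear genes for mitochondrial proteins: GCGCATGCG for NRF1, CCGGAAG for ETS factors such as GABPA, and AAGATGGCG for YY1.
MRPL3, chr3:131502922-131503221, minus strand: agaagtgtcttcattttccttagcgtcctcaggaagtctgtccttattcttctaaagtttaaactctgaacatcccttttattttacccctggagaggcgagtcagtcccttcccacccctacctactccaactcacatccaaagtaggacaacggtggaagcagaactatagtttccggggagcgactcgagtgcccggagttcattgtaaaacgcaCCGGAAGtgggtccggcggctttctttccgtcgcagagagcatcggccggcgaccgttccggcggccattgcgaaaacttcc
MRPL55, chr1:228109250-228109549, minus strand: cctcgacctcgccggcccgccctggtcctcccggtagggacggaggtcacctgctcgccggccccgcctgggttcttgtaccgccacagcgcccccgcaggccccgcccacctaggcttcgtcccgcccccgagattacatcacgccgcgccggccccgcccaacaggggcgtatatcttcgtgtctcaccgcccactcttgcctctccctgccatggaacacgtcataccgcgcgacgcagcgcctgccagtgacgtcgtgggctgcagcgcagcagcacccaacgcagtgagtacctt
MRPL17, chr11:6683291-6683590, minus strand: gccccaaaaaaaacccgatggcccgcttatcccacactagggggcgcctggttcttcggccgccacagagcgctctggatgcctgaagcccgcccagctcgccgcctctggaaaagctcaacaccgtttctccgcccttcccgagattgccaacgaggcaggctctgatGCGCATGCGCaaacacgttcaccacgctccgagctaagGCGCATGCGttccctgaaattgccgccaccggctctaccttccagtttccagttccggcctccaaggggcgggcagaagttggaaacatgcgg
MRPL46, chr15:88467339-88467638, minus strand: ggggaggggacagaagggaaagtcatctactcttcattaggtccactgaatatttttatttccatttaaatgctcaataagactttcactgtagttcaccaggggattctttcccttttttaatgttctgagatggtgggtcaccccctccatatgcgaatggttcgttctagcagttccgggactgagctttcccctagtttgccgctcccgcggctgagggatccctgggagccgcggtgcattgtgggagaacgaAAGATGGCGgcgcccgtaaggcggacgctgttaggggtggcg
The MRPL3 window held 1 match to the ETS letters, the MRPL17 window 3 matches to the NRF1 letters, a pair of which overlap on opposite strands, and the MRPL46 window 1 match to the YY1 letters. The MRPL55 window held none, which says only that these letters are not in this window.

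Of the 77 members, 69 had a promoter in the table. The ETS letters stood in 42.0% of their promoters, against 18.6% of those of other tested genes and 10.7% of all in the table. The YY1 letters stood in 18.8%, against 3.69% and 1.85%, and the NRF1 letters in 4.35%, against 3.73% and 2.1%. Any of the 3 was found in 56.5% of member promoters, against 24.1% of other tested promoters and 13.6% of all. The ETS letters were in 15 of the 29 promoters of members that fell and in 13 of the 39 of members that did not pass. For the YY1 letters these counts were 5 of 29 and 8 of 39. These are matches of letters and not sites.

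Of the genes for the factors themselves, GABPA, the DNA-binding subunit of the ETS factor GABP, rose to 90.6 and 91.5 CPM in the KMT2D shRNA libraries, against 57.9 CPM in the control (log2 fold change 0.65, SE 0.18, edgeR adjusted p = 0.00467). YY1 rose to 98.4 and 92.1 CPM, against 63.2 CPM in the control (0.59, SE 0.18, edgeR adjusted p = 0.00999). The coactivator gene PPARGC1B rose to 15.9 and 16.4 CPM, against 8.36 CPM in the control (0.95, SE 0.29, edgeR adjusted p = 0.0108). NRF1 had 27.9 and 22.9 CPM, against 33.8 CPM in the control, and did not pass (-0.41, edgeR adjusted p = 0.137). All of these are long transcripts of 3159 bases or more. With the length trend removed, only YY1 of the 3 that rose stayed past the threshold (at 0.58, edgeR adjusted p = 0.0152), and with the GC trend removed as well YY1 missed it (0.54, edgeR adjusted p = 0.0509). Of the 10 regulators tested among 11 listed, which include ESRRA, MYC and TFAM, 3 rose (30.0%), where 16.6% of all tested genes rose. The other 7 did not pass, and the list had a median of 0.37 on the log2 scale, or 0.17 without the length trend.

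Members are short, with a median length of 1161 bases (483.3 to 7827) against 2962 bases over all tested genes, and fold change ran with length in these libraries. Over the other tested genes, Spearman's rho between log2 fold change and length was 0.462, and over the 77 members it was 0.475, given as a description across genes of the same libraries. For each member the 200 tested genes nearest in log length that are no members were taken as genes of similar length, 5254 in all. Of these, 23.8% fell and 7.31% rose, their median log2 fold change was -0.24, and both labelled libraries lay below the control for 59.2%. The median over members was lower by 0.195. This pool had a median length of 1704 bases and was thus longer than the members.

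Against its own 200 neighbours in length, the median member differed by only -0.04 on the log2 scale. Members lay at a median percentile of 45.5, with 44 below the median of their neighbours and 33 above it. At or under the lower quartile stood 17 members, and at or above the upper quartile 8. A single member was at or under percentile 10, MRPS11 at 9.5, and a single one at or above percentile 90, MRPL3 at 95.

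**Figure D2:**
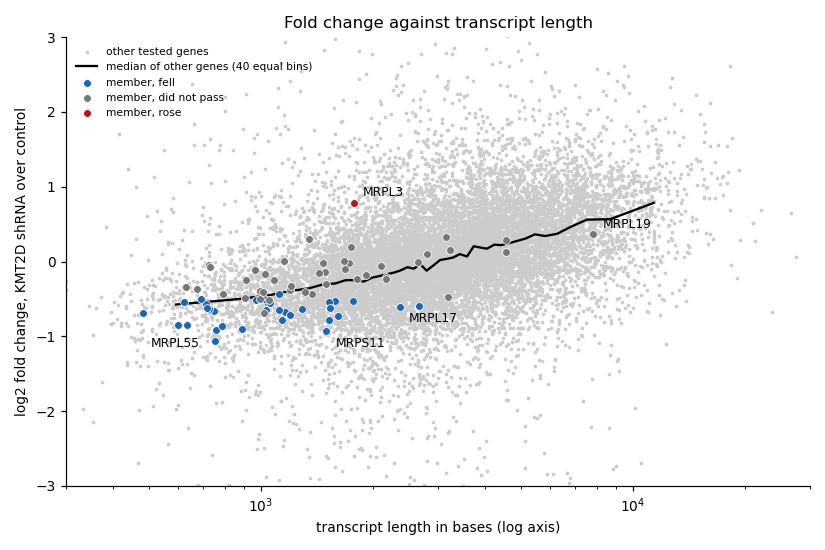
Log2 fold change of KMT2D shRNA over control against transcript length in bases (log axis) for members, coloured by call, and other tested genes in grey, with their median in 40 equal bins as a line. Members follow the line, MRPL3 well above it and MRPS11 below it; 140 genes beyond 3 in either direction and 26 outside 300 to 30000 bases lie outside the plot.

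By length range, chosen after the data were seen, the medians of members and of other genes of the same range lay close together. The share that fell was higher among members in each range, a difference that was not tested. Under 750 bases, the median log2 fold change was -0.56 over 14 members and -0.58 over 348 other genes. In this range 9 (64.3%) and 170 (48.85%) fell. From 750 to under 1000 bases it was -0.50 over 11 members and -0.49 over 432 other genes, with 5 (45.5%) and 186 (43.1%) that fell. From 1000 to under 1500 bases it was -0.43 over 25 members and -0.38 over 1201 other genes, with 10 and 374 that fell. The shortest members were thus the lowest, as the shortest genes were in general. From 1500 to under 2500 bases the median was -0.24 over 18 members and -0.20 over 3505 others, with 8 (44.4%) and 687 (19.6%) that fell. The 9 members of 2500 to under 10000 bases had a median of 0.13, against 0.19 over 8188 other genes, with 1 (11.1%) and 585 (7.1%) that fell.

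**Figure D3:**
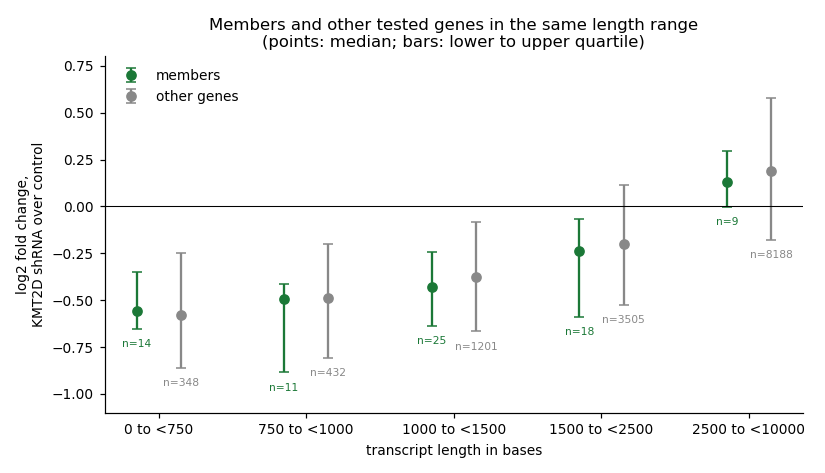
Median log2 fold change of KMT2D shRNA over control (points) with lower and upper quartile (bars) for members (green) and other tested genes (grey) in 5 ranges of transcript length, with their numbers. In each range the quartile bars of members and other genes overlap, and both sets climb with length.

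With the trend of fold change with length removed, 3 members fell, where 9.42% of all tested genes fell, and MRPL3 rose, where 10.2% of all tested genes rose. The median member was then at -0.03. The call was lost for 30 of the 33 members that fell. Those that kept it were MRPL55 (-0.53, edgeR adjusted p = 0.0281), MRPS11 (-0.61, edgeR adjusted p = 0.019) and MRPL17 (-0.47, edgeR adjusted p = 0.0449). MRPL3 stood at 1.06 (edgeR adjusted p = 8.72e-06). With trends of length and GC content removed together, MRPL17 fell (-0.53, edgeR adjusted p = 0.0461), where 5.94% of all tested genes fell. MRPL3 rose (0.89, edgeR adjusted p = 0.00786), where 6.49% of all tested genes rose. MRPS11 was at -0.57 with an edgeR adjusted p of 0.0553 in that fit, and MRPL55 at -0.32 with 0.206. MRPL3 was the only member past the threshold in the same direction in all 3 of these fits besides MRPL17.

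**Figure D4:**
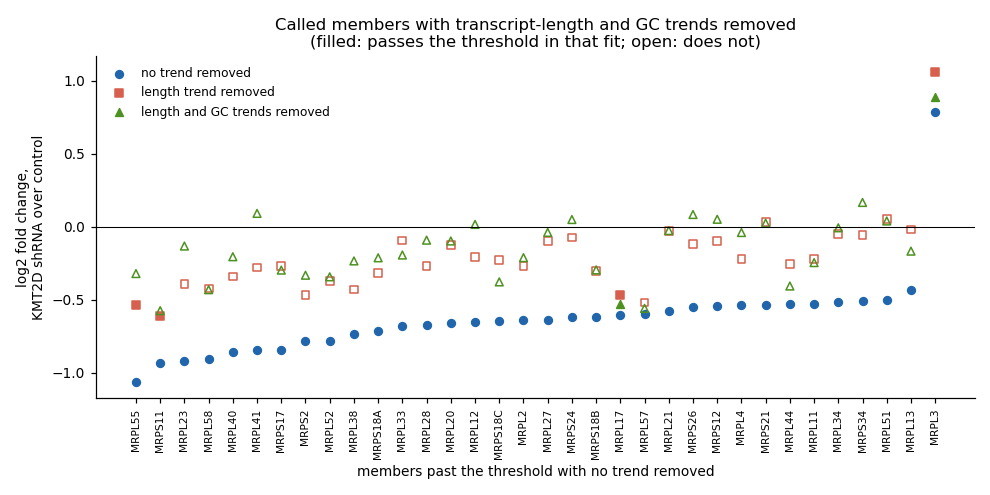
Log2 fold change of KMT2D shRNA over control for the 34 members called with no trend removed (blue circles), with the length trend removed (red squares) and with length and GC trends removed (green triangles); filled symbols pass the threshold in that fit. Most members that fell move towards 0, and MRPL3 and MRPL17 stay filled in all 3 fits.

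GC content also ran with the fold change among members. Spearman's rho with log2 fold change was -0.523 for GC content and -0.529 for the FPKM level in the control, and GC content and length had a rho of -0.339. Members rich in GC, such as MRPL41 at 72.0% and MRPL23 at 66.3%, were among those that fell most. With both trends removed MRPL41 was at 0.09 and MRPL23 at -0.13.

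The tool also set how many were called. DESeq2's Wald test called 2 members lower, MRPL55 and MRPL23, where 3.27% of all tested genes fell, and none higher. At an unadjusted p under 0.05, DESeq2 had 18 members lower and 1 higher, among 2539 such genes of 14058, and edgeR 42 and 1, among 5716 such genes of 14058.

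The large subunit carries the peptidyl transferase centre. Of its 51 members, 1 rose and 23 fell, and their median was -0.48 on the log2 scale. The small subunit holds the decoding centre, and of its 26 members 10 fell (38.5%) and 16 did not pass, with a median of -0.22. Of all tested genes 14.5% fell and 16.6% rose, and of genes of similar length 23.8% fell and 7.31% rose. The difference between the subunits was not tested. With the length trend removed the medians were -0.04 for the large and 0.03 for the small subunit, so the second turned its direction. Small subunit members were also longer, with a median of 1388 bases, against 1142 for large subunit members.

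In the central protuberance, which faces the small subunit, 4 of 7 listed members fell (57.1%) and the median was -0.68. Of all tested genes 14.5% fell, and of genes of similar length to members 23.8%. MRPL58, a peptidyl-tRNA hydrolase built into the ribosome, had 33.8 and 32.1 CPM in the KMT2D shRNA libraries, against 61.9 CPM in the control (-0.91, SE 0.19, edgeR adjusted p = 0.000156). MRPL40 had 21.8 and 25.8 CPM, against 43.2 CPM (-0.86, SE 0.21, edgeR adjusted p = 0.000948), and MRPL38 had 70.9 and 75.3 CPM, against 121.3 CPM (-0.73, SE 0.17, edgeR adjusted p = 0.000758). Both labelled libraries lay below the control for each of these, which the ranking that named them selects for. MRPL27, the counterpart of the bacterial protein whose tail reaches the peptidyl transferase centre, had 32.7 and 25.4 CPM, against 45.2 CPM in the control (-0.64, SE 0.20, edgeR adjusted p = 0.0133). MRPL46 did not pass despite a fold change of -0.68 (8.79 and 10.5 CPM, against 15.4 CPM in the control, edgeR adjusted p = 0.0629), and it is named here after its values were seen. With the length trend removed the median of these 7 was -0.23 and none passed.

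In the stalk, which recruits translation factors, MRPL12, the counterpart of bacterial L7/L12, fell to 71.7 and 69.6 CPM, against 110.8 CPM in the control (-0.65, SE 0.17, edgeR adjusted p = 0.00275). MRPL11 also fell (-0.53, edgeR adjusted p = 0.0204), and MRPL10, which anchors the stalk, did not pass (-0.24, edgeR adjusted p = 0.31). MRPL12 was at 0.02 with length and GC trends removed.

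Other large subunit members among those that fell most were MRPL41, MRPL52 and MRPL28. MRPL41 had 28.3 and 25.6 CPM in the KMT2D shRNA libraries, against 48.5 CPM in the control (-0.85, SE 0.20, edgeR adjusted p = 0.000808). MRPL52 had 32.5 and 30.6 CPM, against 54.3 CPM (-0.78, SE 0.19, edgeR adjusted p = 0.00134), and MRPL28 had 47.0 and 50.3 CPM, against 77.6 CPM (-0.67, SE 0.18, edgeR adjusted p = 0.00276). In each, the control was above both labelled libraries, but the ranking that named them selects for this. Both lay below the control for 42.7% of all tested genes. Of the small subunit, MRPS17 had 26.4 and 27.6 CPM, against 48.5 CPM in the control (-0.85, SE 0.20, edgeR adjusted p = 0.000797). MRPS2 had 40.9 and 45.3 CPM, against 74.3 CPM (-0.79, SE 0.18, edgeR adjusted p = 0.000601). Both are counterparts of bacterial small subunit proteins, and RefSeq names 6 pseudogenes after MRPS17.

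The MRPS18 paralogs descend from a single bacterial protein and occupy different places, MRPS18A in the large subunit and MRPS18B and MRPS18C in the small one. All 3 fell. MRPS18A had 32.3 and 41.4 CPM, against 60.3 CPM in the control (-0.71, SE 0.19, edgeR adjusted p = 0.00314). MRPS18B had 62.3 and 66.6 CPM, against 98.8 CPM (-0.62, SE 0.17, edgeR adjusted p = 0.00488). MRPS18C had 19.1 and 16.0 CPM, against 27.4 CPM (-0.64, SE 0.22, edgeR adjusted p = 0.0227). Their fold changes lay within 0.1 of each other, and none passed with the length trend removed (-0.32, -0.30 and -0.23). MRPS18C is annotated as overlapping ABRAXAS1 and has 6 named pseudogenes.

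Levels can be compared between members only per length. Mean FPKM over the 3 libraries ran from 4.88 for MRPS14 to 116.5 for MRPS21, a 23.9-fold range, while the quartiles of 21.3 and 58.3 FPKM were 2.74-fold apart. MRPS21 had 99.7 and 95.0 FPKM in the KMT2D shRNA libraries, against 155.0 FPKM in the control, and RefSeq names 9 pseudogenes after it. MRPL20, with 104.2 and 85.2 FPKM against 147.0 FPKM, and annotated as overlapping MRPL20-AS1, was next in level, followed by MRPS16 with 109.1 and 107.8 FPKM, against 107.0 FPKM in the control. The level of MRPS16 was thus as high in the KMT2D shRNA libraries as in the control. At 2651 bases MRPS16 is a long member, and it stood at percentile 54 among its 200 neighbours in length. Their median log2 fold change was -0.03, so a flat level was ordinary for its length. The CPM of MRPS16 were 285.4 and 289.2, against 287.7 in the control (log2 fold change -0.00, SE 0.17, edgeR adjusted p = 0.994), and it is annotated as overlapping the antisense gene DNAJC9-AS1.

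MRPL4 had 80.5 and 95.7 FPKM in the KMT2D shRNA libraries, against 130.9 FPKM in the control, and fell (log2 fold change of counts -0.54, SE 0.17, edgeR adjusted p = 0.013). MRPL51 had 91.2 and 80.3 FPKM, against 119.5 FPKM, and fell (-0.50, SE 0.18, edgeR adjusted p = 0.0259). MRPS24 had 72.3 and 84.4 FPKM, against 118.8 FPKM, and fell (-0.62, SE 0.18, edgeR adjusted p = 0.00595). So did MRPS21 (-0.54, SE 0.18, edgeR adjusted p = 0.0153) and MRPL20 (-0.66, SE 0.17, edgeR adjusted p = 0.00285), and of these 5 none passed with the length trend removed. At the low end, MRPS14 had 4.59 and 4.65 FPKM, against 5.41 FPKM, MRPL22 5.81 and 5.1 FPKM, against 7.46 FPKM, MRPL19 7.99 and 7.82 FPKM, against 6.04 FPKM, and MRPL15 7.81 and 8.75 FPKM, against 7.12 FPKM. None of these 4 passed, with edgeR adjusted p of 0.585, 0.112, 0.128 and 0.63 in the same order.

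**Figure D5:**
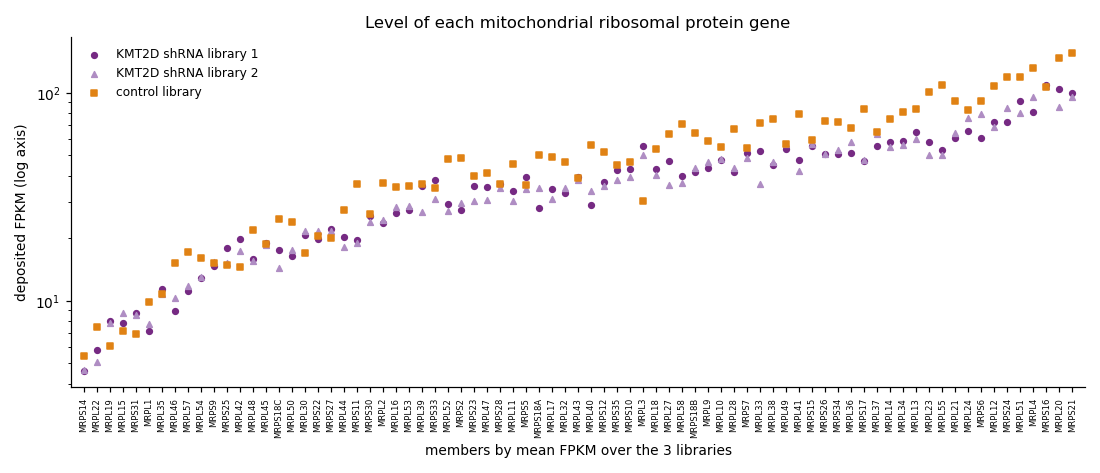
Deposited FPKM (log axis) of each member in KMT2D shRNA library 1 (dark circles), library 2 (light triangles) and the control (orange squares), members ordered by mean FPKM from 4.88 to 116.5. The control square is the highest symbol for most members, but not for MRPL3, MRPL19 or MRPS16.

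The members nearest to a fold change of 0 were MRPS16, MRPS22, MRPS5 and MRPL45. MRPS22 had 22.2 and 24.8 CPM in the KMT2D shRNA libraries, against 23.4 CPM in the control (0.00, SE 0.22, edgeR adjusted p = 0.992), and MRPS5 had 64.6 and 58.0 CPM, against 61.0 CPM (0.01, SE 0.18, edgeR adjusted p = 0.986). For both, the control lay between the labelled libraries. MRPL45, which binds nascent chains at the inner membrane, had 32.1 and 31.9 CPM, against 32.5 CPM (-0.02, SE 0.21, edgeR adjusted p = 0.952). With these SE values, changes of the size seen in the members that fell least could have gone unseen.

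The labelled libraries differed most for MRPL33, MRPL27, MRPL39 and MRPS6. MRPL33, the shortest member at 483.3 bases, had 23.7 and 16.8 CPM, against 32.5 CPM in the control (-0.68, SE 0.22, edgeR adjusted p = 0.0141). MRPL39 had 37.3 and 28.8 CPM, against 39.1 CPM, and did not pass (-0.24, edgeR adjusted p = 0.398). MRPS6 had 59.4 and 79.4 CPM, against 92.3 CPM, and did not pass (-0.41, edgeR adjusted p = 0.0771), and it is annotated as overlapping SLC5A3. For all 4 both labelled libraries were still below the control. The gap between them was 0.49 on the log2 scale at most, for MRPL33.

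Standing lowest among their neighbours in length were MRPS11 at percentile 9.5, MRPS2 at 13, MRPL57 at 13.5, MRPL55 at 14 and MRPL22 at 16. MRPL57, of 2671 bases, was the longest member that fell, with 29.4 and 31.7 CPM, against 46.3 CPM in the control (-0.60, SE 0.20, edgeR adjusted p = 0.0171). It missed the threshold without the length trend (-0.52, edgeR adjusted p = 0.056) and has 8 named pseudogenes. MRPL22 had 18.3 and 16.6 CPM, against 24.2 CPM, and did not pass (-0.47, edgeR adjusted p = 0.112). Standing highest were MRPL3 at 95, MRPS31 at 89.5, MRPL15 at 84.5, MRPS33 at 83.5 and MRPS28 at 83. MRPS31 had 11.5 and 11.4 CPM, against 9.26 CPM in the control, and did not pass (0.30, SE 0.31, edgeR adjusted p = 0.486). MRPS33 had 26.2 and 21.9 CPM, against 25.3 CPM, and MRPS28 had 25.03 and 24.44 CPM, against 25.61 CPM, and neither passed (edgeR adjusted p of 0.845 and 0.892). MRPS33 and MRPS28 are short and lay near 0, where genes of their length had medians of -0.55 and -0.53.

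By origin, 48 members have a bacterial counterpart, of which 1 rose (2.08%) and 23 fell (47.9%), and their median was -0.45 on the log2 scale. Of the 29 without one, 10 fell (34.5%) and 19 did not pass, with a median of -0.34. Of all tested genes 14.5% fell and 16.6% rose, and of genes of similar length 23.8% fell and 7.31% rose. With the length trend removed the medians were -0.05 and 0.05, so the second turned its direction. The difference was not tested.

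Starts within 1000 bases of a divergent tested gene were found for 18 members, a window chosen after the data were seen. Among these, MRPS11 and MRPL46 face each other 320 bases apart and both lay lower (-0.93 and -0.68), though MRPL46 did not pass. Without the length trend they were at -0.61 and -0.23. MRPL51 fell (-0.50) while its partner NCAPD2, a condensin subunit gene 840 bases away, rose (0.92, edgeR adjusted p = 0.000145). Without the length trend MRPL51 was at 0.05 and NCAPD2 at 0.67. MRPL49 was at -0.06 and did not pass (edgeR adjusted p = 0.844) while its partner FAU, which encodes a cytosolic ribosomal protein, fell (-0.62, edgeR adjusted p = 0.00388). Without the length trend MRPL49 was at 0.15 and FAU at -0.04. MRPL27 and its partner EME1, a DNA repair endonuclease subunit gene 45 bases away, both fell, at -0.64 each (EME1 edgeR adjusted p = 0.00359). Without the length trend MRPL27 was at -0.10 and EME1 at -0.50. Of the 18 partners, 5 fell and 1 rose, with a median of 0.06, where 14.5% of all tested genes fell and 16.6% rose. MRPS11 and MRPL46 are counted there as each other's partner, and MRPS11 is among the 5 that fell.

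Of the 5 mitochondrial ribosomal proteins that carry other symbols, 3 fell (60.0%), where 14.5% of all tested genes fell. GADD45GIP1, a large subunit protein, had 81.8 and 75.9 CPM in the KMT2D shRNA libraries, against 157.1 CPM in the control (-0.99, SE 0.17, edgeR adjusted p = 6.92e-06). AURKAIP1 had 127.2 and 127.5 CPM, against 229.6 CPM (-0.85, SE 0.17, edgeR adjusted p = 7.3e-05), and CHCHD1 had 64.6 and 56.2 CPM, against 100.3 CPM (-0.73, SE 0.17, edgeR adjusted p = 0.00095). These were short as well (772 to 910.8 bases). DAP3 and PTCD3, both of the small subunit, did not pass (-0.34 and 0.17). Of the 3 that fell, only GADD45GIP1 still passed without the length trend (-0.47, edgeR adjusted p = 0.0429). With the GC trend removed as well it did not pass (-0.31, edgeR adjusted p = 0.187).

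Among 24 assembly factors, 5 fell (20.8%) and 1 rose (4.17%), where 14.5% and 16.6% of all tested genes did. The list's median was -0.32 on the log2 scale. MRM1, a methyltransferase of the large subunit rRNA, fell to 2.87 and 3.15 CPM, against 8.72 CPM in the control (-1.53, SE 0.42, edgeR adjusted p = 0.00388). MRM3, which methylates the same rRNA, fell as well (-0.76, edgeR adjusted p = 0.0146), as did NGRN (-0.60, edgeR adjusted p = 0.00517) and ERAL1, which binds the small subunit rRNA (-0.52, edgeR adjusted p = 0.0261). NDUFAB1 was the fifth that fell (-0.61, edgeR adjusted p = 0.02). TFB1M, which dimethylates the small subunit rRNA, rose to 17.4 and 15.8 CPM, against 10.2 CPM in the control (0.70, SE 0.28, edgeR adjusted p = 0.0474). Without the length trend the list's median was -0.17. MRM1 (-1.27, edgeR adjusted p = 0.0238) and TFB1M (0.76, edgeR adjusted p = 0.046) then still passed. MRM3, NGRN, ERAL1 and NDUFAB1 did not (edgeR adjusted p of 0.16, 0.191, 0.345 and 0.801 in that order). GTPBP10, not called with no trend removed (-0.42, edgeR adjusted p = 0.0922), then passed (-0.88, edgeR adjusted p = 0.000369). With the GC trend removed as well, GTPBP10 still passed (-0.88, edgeR adjusted p = 0.0133). In that fit MRM1 (-1.11, edgeR adjusted p = 0.0869) and TFB1M (0.64, edgeR adjusted p = 0.1185) did not.

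Of 17 mitochondrial translation factors, 2 rose and 2 fell (11.8% each), where 16.6% of all tested genes rose and 14.5% fell. The initiation factor MTIF2 rose (0.49, edgeR adjusted p = 0.0494), with 55.6 and 50.7 CPM, against 38.0 CPM in the control, and the elongation factor GFM1 rose (0.54, edgeR adjusted p = 0.0369), with 49.1 and 44.2 CPM, against 32.2 CPM. SLIRP, a partner of LRPPRC in mRNA stability, fell (-0.86, edgeR adjusted p = 0.00139), as did TACO1, an activator of COX1 translation (-0.67, edgeR adjusted p = 0.00264). The risers are the longer transcripts here (2680 and 3468 bases), against 421.6 and 1479 bases for those that fell. The median of the list was -0.12 and turned to 0.14 with the length trend removed. MTIF2 then still passed (0.56, edgeR adjusted p = 0.0303), while GFM1, SLIRP and TACO1 did not (edgeR adjusted p of 0.101, 0.405 and 0.176 in that order). With the GC trend removed as well MTIF2 did not pass (0.43, edgeR adjusted p = 0.124).

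Of 13 genes of mitochondrial transcription and RNA processing, 2 fell (15.4%), where 14.5% of all tested genes fell. The other 11 did not pass, and the list's median was -0.20. PNPT1, a polynucleotide phosphorylase that is also known to be interferon-induced, fell to 79.9 and 62.9 CPM, against 258.1 CPM in the control (-1.85, SE 0.17, edgeR adjusted p = 7.43e-13), and to -2.09 with the length trend removed. TRMT10C, a subunit of mitochondrial RNase P, also fell (-0.54, edgeR adjusted p = 0.0241), a call lost without the length trend (-0.28, edgeR adjusted p = 0.318). PNPT1 moved with ISG15 in these libraries, whose part in the result was not tested. Of 19 import, chaperone and matrix genes, 1 fell and 1 rose (5.26% each), where 14.5% and 16.6% of all tested genes did. LONP1, the matrix protease, fell (-0.80, edgeR adjusted p = 0.000103) and CS, citrate synthase, rose (0.58, edgeR adjusted p = 0.009). Both stayed past the threshold with the length trend removed. The mRNAs encoded in the mitochondrial genome are not analysed here.

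Beside the members, 55 of 83 cytosolic ribosomal protein genes fell (66.3%) and 1 rose (1.2%). Their median of -0.48 on the log2 scale turned to 0.02 with the length trend removed. Of 76 nuclear genes for subunits of oxidative phosphorylation, 33 fell (43.4%) and 2 rose (2.63%), with a median of -0.36 that turned to 0.11. The median lengths of these 2 sets were 737 and 849 bases, so both sets are shorter still than the members. Of all tested genes 14.5% fell and 16.6% rose. Among genes that are no members, 48.85% fell under 750 bases and 43.1% from 750 to under 1000 bases. Whether members differ from either set was not tested.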

How the data were processed

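Polyadenylated RNA was selected, fragmented, reverse transcribed with random primers and sequenced on a BGISEQ-500, per the labels' protocols, which name no step that marks strand. The submitters' processing notes list hg19 as a build and both HISAT and Bowtie2 as tools, with no version or role for either. The deposited tables give length, expected counts (estimated reads per gene, not normalized) and FPKM (scaled by length and library total by the authors), per the file headers. About 68% of expected counts were whole (67.8% to 68.04%, exact integers).

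Tables were joined on the Entrez identifier, a gene missing from a table being taken as 0. Names came from RefSeq GRCh38.p14, by identifier for 18214, by transcript for 28 and for 89 not at all. GC content is a mean over GENCODE transcripts (98.15% of tested genes, all 77 members). Expected counts were rounded and tested with edgeR 4.0.16 in R 4.3.3 (filterByExpr, TMM, quasi-likelihood F test on group, Benjamini-Hochberg, threshold 0.05), with 1 residual degree of freedom, 51.03 prior degrees of freedom and a biological coefficient of variation of 10.9%. SE values derive from the F statistic, and values per library are log2 CPM with a prior count of 2. Length and GC trends were removed by loess (span 0.3) through offsets. The fits were tested on simulated data. DESeq2 1.42.0 and limma 3.58.1 (trend prior, on log2(FPKM + 1)) were alternatives. Depth limits precision: members had medians of 215 and 205 counts in the KMT2D shRNA libraries, against 302 in the control.

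Members, lists and the rule for named genes were chosen with earlier results of these data known. Named are KMT2D, up to 12 called members each way, ranked by the change in the less changed labelled library, those of highest and lowest FPKM, nearest 0, most different between libraries or farthest from genes of their length, the MRPS18 paralogs, and up to 4 called genes per other list. Genes outside this rule (MRPL10, MRPL11, MRPL17, MRPL46, MRPL49, the divergent partners, NDUFAB1, ERAL1, GTPBP10, NRF1, DAP3 and PTCD3) were named after their values were seen.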

Additional observations from a re-analysis of the deposited data

How the results depend on the processing

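The control is 1 library, so no setting can leave it out and the spread comes from the labelled libraries alone. No paired analysis was possible because the groups share fewer than 2 replicate numbers. Against 4369 genes called, 33 members that fell and 1 that rose, the counts were 1909, 12 and 1 with no filter on low counts (18283 genes tested), 1214, 2 and 0 with DESeq2, 2752, 3 and 1 with the length trend removed, 1748, 1 and 1 with length and GC trends removed, and 1632, 13 and 1 with limma on log2(FPKM + 1). Beside the 0, the DESeq2 count at an unadjusted p under 0.05 was 1. The median log2 fold change of members, -0.436, was -0.028, -0.036 and -0.399 in the last 3 of these. The difference from genes of similar length, -0.195, was -0.039 and -0.049 with the trends removed, -0.157 with 100 and -0.244 with 400 nearest genes. Without KMT2D shRNA replicate 1 or 2 the median of members was -0.445 to -0.419 and the difference -0.207 to -0.179. Other scalings and a filter at 5 CPM kept these within 1.5 times (23 to 32 members fell). Beyond construction, the cause of these shifts was not tested.

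Direction turned for these genes named by rule. With the length trend removed, log2 fold changes were -0.11 (MRPL19), 0.19 (MRPL39), 0.26 (MRPL45), 0.05 (MRPL51), 0.08 (MRPS16), 0.03 (MRPS21), 0.49 (MRPS28), 0.47 (MRPS33), 0.04 (MRPS6) and -0.60 (KMT2D). With length and GC trends removed they were 0.02 (MRPL12), -0.12 (MRPL19), 0.04 (MRPL39), 0.09 (MRPL41), 0.14 (MRPL45), 0.04 (MRPL51), 0.02 (MRPS16), 0.03 (MRPS21), 0.05 (MRPS24), 0.42 (MRPS28), 0.39 (MRPS33) and -0.45 (KMT2D). Of genes named after their values were seen, MRPL10 was at 0.03 and 0.08, MRPL49 at 0.15 and 0.18 and PTCD3 at -0.24 and -0.26 in these 2 fits. MRPL45 was at 0.00 on FPKM. MRPS16 was at 0.00 with DESeq2 size factors and DESeq2, at 0.02 with library totals and FPKM. MRPS22 and MRPS5 were at -0.01 and -0.00 with the 5 CPM filter. Without KMT2D shRNA replicate 1 or 2, MRPS16 was at -0.01 to 0.01, MRPS22 at -0.08 to 0.08, MRPS33 at -0.20 to 0.05 and MRPS5 at -0.07 to 0.08. None of these members passed in edgeR, except MRPL12, MRPL41, MRPL51, MRPS21 and MRPS24, which fell with no trend removed.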
